A study of Mus musculus with 20 samples.

Results

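Susceptible male mice were compared with susceptible female mice after chronic restraint stress, in RNA of a basal forebrain nucleus, the bed nucleus of stria terminalis (BNST). The comparison took the 5 libraries of susceptible males and the 5 of susceptible females, 10 of the 20 libraries in the series. It covered autosomal and mitochondrial genes only, which are 18468 of the 19214 genes listed in each count table. Of these, 14335 had enough counts to be tested, 14322 on autosomes and 13 on the mitochondrial genome. Susceptible mice are those of an anxiety model in which animals are held in confinement again and again. How susceptibility was judged, the strain, the age and the length of the stress were not given in the sources used here. The 5 male and 5 female control libraries, which carry no stress label, were used for the same male against female comparison. All 20 libraries were fitted together, so the controls also enter the estimate of spread behind the p-values of the susceptible comparison. Nothing in the labels ties a library to an animal of its own, so p-values here measure the spread between libraries, which may in part be technical.

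The BNST belongs to the extended amygdala and holds mainly GABA-releasing neurons, many of which make neuropeptides such as corticotropin-releasing hormone. It is known for anatomical and molecular differences between the sexes that depend on oestrogen and androgen receptors. Restraint raises circulating corticosteroids, which act in the brain on the glucocorticoid receptor (Nr3c1) and the mineralocorticoid receptor (Nr3c2) and switch on targets such as Sgk1 and Fkbp5.

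Expression is given as CPM, the usual scaling of counts by library size, here with TMM-adjusted sizes, and differences as log2 fold change of male over female ± standard error (SE). Susceptible female libraries totalled 14863126 to 17621275 counts and susceptible male libraries 14637636 to 16120613. Transcription factors of subpallial GABA neurons, the class to which BNST neurons belong, were all above the count filter (20 of 20) and summed to 773 to 1194 CPM in susceptible females (median 992) and 844 to 1073 CPM in susceptible males (median 873). Markers of neighbouring structures were present in several libraries. Ttr, a choroid plexus gene for transthyretin, exceeded 100 CPM in susceptible females 1 and 3 and susceptible males 2 and 5, and Pmch, whose peptide marks lateral hypothalamic neurons, exceeded 1 CPM in susceptible female 4 and susceptible male 5. Susceptible female 5 had 719 CPM of Slc17a7, the vesicular glutamate transporter of cortex and hippocampus, against 11.1 to 181 CPM in the other 9 libraries. In tissue RNA of this kind, fewer cells of a type and less RNA per cell cannot be told apart.

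Of the 14335 genes, 1 passed the adjusted p threshold of 0.05 between susceptible males and females (0.00698% of genes), and it was higher in males. Of all genes on all chromosomes, 7 passed, and the other 6 were sex-linked or unplaced and were not analysed here. At an unadjusted p under 0.05, 461 genes were higher in males (3.22%) and 435 were lower (3.03%). In 52 genes every male library exceeded every female library (0.363%), and in 54 genes the reverse held (0.377%). Over all genes the median log2 fold change was -0.02, with 6352 genes above 0 and 7983 below.

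**Figure D1:**
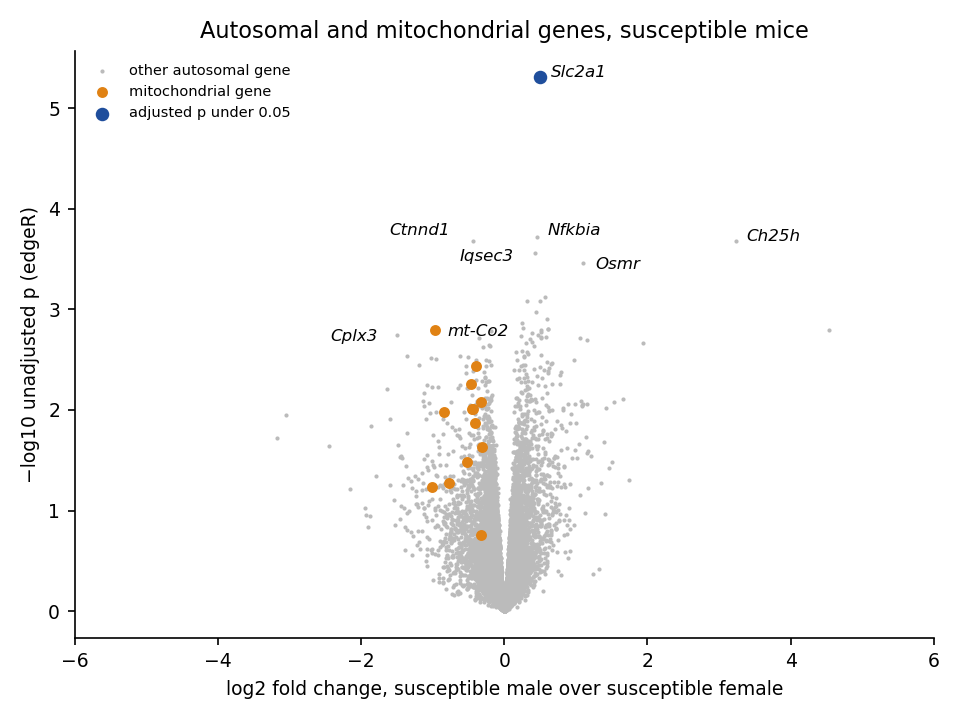
Log2 fold change of susceptible males over susceptible females (x axis) against minus log10 of the unadjusted p from the edgeR quasi-likelihood test (y axis), with 1 point per gene. Slc2a1 is the gene past the adjusted threshold, and the 13 mitochondrial genes (orange) all lie left of 0.

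The gene that passed was Slc2a1 (ENSMUSG00000028645; chromosome 4, 119108711 to 119137983, GRCm38), which encodes GLUT1, the glucose transporter of the blood-brain barrier endothelium and of astrocytes. Susceptible females 1 to 5 had 75.2, 71.8, 80.5, 78.5 and 81.3 CPM, and susceptible males 1 to 5 had 94.4, 106, 107, 103 and 139.8 CPM. Every male library exceeded every female library, and male 5 stood above the other 4. Means were 77.4 ± 3.94 CPM in females and 110.0 ± 17.4 CPM in males (SD, n = 5 each), a log2 fold change of 0.51 ± 0.08 with an adjusted p of 0.0105 by edgeR's quasi-likelihood test. In controls the same gene ranged over 66.7 to 77.8 CPM in females and 93.3 to 99.1 CPM in males (log2 fold change 0.42 ± 0.08, adjusted p = 0.0322 by edgeR). The male over female difference after stress minus that in controls was 0.08 ± 0.11, with an unadjusted p of 0.472.

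The call of Slc2a1 held with some choices of analysis and not with others, while the size of its difference moved little. Its log2 fold change lay between 0.41 and 0.56 when each susceptible library was left out in turn. The adjusted p was 0.593 when the 10 susceptible libraries were fitted without the controls and 0.0558 with the replicate number as a block. Without the libraries over 100 CPM of Ttr, a limit applied to controls as well, it was 0.421 (3 susceptible males against 3 susceptible females). It was 0.0710 when p-values were adjusted over autosomal and mitochondrial genes alone, 0.0648 when sex-linked and unplaced genes were removed before the fit, and 0.0514 without susceptible female 2. Slc2a1 passed with DESeq2 (adjusted p = 1.4e-05) and with limma voom (adjusted p = 0.0300). DESeq2 called 7 genes in all, the others being Iqsec3, Ch25h, Osmr, Lcn2, Nfkbia and Ctnnd1, and limma voom called 2, Slc2a1 and Iqsec3. Without susceptible female 4, 13 genes passed by edgeR, all higher in males.

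Nfkbia, the gene of the NF-kB inhibitor that both NF-kB and glucocorticoids induce, had the next smallest p. Its level was 17.6, 15.6, 17.8, 17.3 and 16.2 CPM in susceptible females 1 to 5 and 20.9, 20.2, 26.0, 21.4 and 27.4 CPM in susceptible males 1 to 5, without overlap. The log2 fold change was 0.46 ± 0.10, but the adjusted p was 0.260 by edgeR, so it did not pass. Control males had 18.8 to 27.5 CPM and control females 14.5 to 15.8 CPM, again without overlap, and there the log2 fold change of 0.58 ± 0.10 did pass (adjusted p = 0.0162 by edgeR). The 250 bases upstream of the Nfkbia start (chr12:55492648-55492897, GRCm38.p6, minus strand, from RefSeq) are shown because this stretch carries the NF-kB sites for which the gene is known. They are printed 5′ to 3′ with matches to GGANNTTCC, on either strand, in capitals.
Nfkbia upstream: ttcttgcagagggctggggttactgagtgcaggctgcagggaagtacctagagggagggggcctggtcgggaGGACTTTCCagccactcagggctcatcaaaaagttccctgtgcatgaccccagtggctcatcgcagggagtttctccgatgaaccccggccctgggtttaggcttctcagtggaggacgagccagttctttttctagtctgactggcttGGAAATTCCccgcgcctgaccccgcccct
The 2 matches began 178 and 29 bases before the start and did not overlap. Of 32851 RefSeq windows of this length, 3.59% held a match. The glucocorticoid receptor half-site AGAACA, found in 16.1% of windows, was not among these letters on either strand. These are matches of letters, and binding was not measured.

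Over all 20 libraries, 6 genes separated the 10 males from the 10 females without overlap, all of them higher in males (0.0419% of genes). They were found by this separation, so their levels are a description. Besides Slc2a1 and Nfkbia they were Osmr, Ch25h, Elmsan1 and Dclre1b. Osmr, a receptor subunit for oncostatin M, had 3.96, 4.60, 4.45, 4.34 and 4.69 CPM in susceptible females 1 to 5 and 5.54, 7.84, 6.01, 11.6 and 16.4 CPM in susceptible males 1 to 5. Males 4 and 5 were the highest, and the log2 fold change was 1.10 ± 0.25 (adjusted p = 0.370 by edgeR). Ch25h, the cholesterol 25-hydroxylase induced by inflammatory signals, was rare, at 0.0660 to 0.124 CPM in susceptible females and 0.405 to 1.78 CPM in susceptible males (log2 fold change 3.24 ± 0.71, adjusted p = 0.260 by edgeR). In controls it was 0 to 0.173 CPM in females and 0.249 to 4.52 CPM in males and passed the test (adjusted p = 0.0109 by edgeR). Elmsan1, a subunit of a histone deacetylase complex, differed by 0.25 and Dclre1b, a telomere-end nuclease, by 0.37 on the log2 scale, with adjusted p of 0.690 for each by edgeR.

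**Figure D2:**
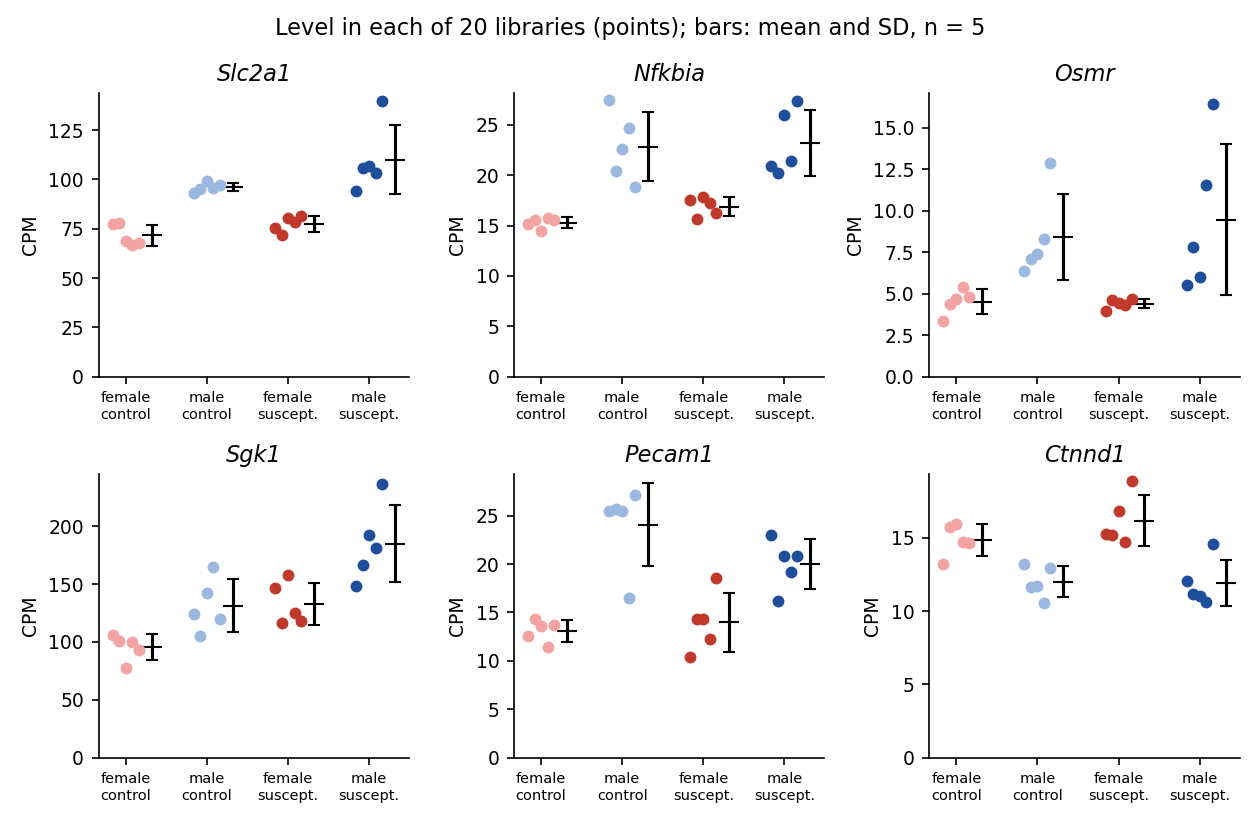
CPM (y axis) of 6 genes in each library of the 4 groups (x axis); points are libraries 1 to 5 from left to right, and bars show mean and SD (n = 5). Males exceed females without overlap in both conditions for Slc2a1, Nfkbia and Osmr, the susceptible groups overlap for Sgk1 and Pecam1, and Ctnnd1 is lower in susceptible males without overlap.

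The other genes with the smallest p-values higher in susceptible males did not pass either. Iqsec3, an exchange factor at inhibitory synapses, had 203, 219, 176, 272 and 195 CPM in susceptible females 1 to 5 and 326, 254, 292, 313 and 249 CPM in susceptible males 1 to 5, with female 4 inside the male range. Its log2 fold change was 0.43 ± 0.10 (adjusted p = 0.313 by edgeR), beside 0.09 ± 0.10 in controls, and it passed under DESeq2 and limma voom. By edgeR it also passed without susceptible female 4 and without the libraries over 1 CPM of Pmch. Sertm1 (0.56 ± 0.14) did not overlap between the groups, with 11.7 to 21.7 CPM in females and 22.5 to 26.5 CPM in males, whereas Alk, a receptor tyrosine kinase gene (0.50 ± 0.13), and Magi3, a membrane scaffold gene (0.32 ± 0.08), did overlap. In controls the log2 fold changes of these genes were -0.10, 0.07 and -0.02 in that order.

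Ctnnd1, the gene of p120-catenin, which stabilises cadherins at cell junctions, had the smallest p among genes lower in susceptible males. Females 1 to 5 had 15.2, 15.2, 16.8, 14.7 and 18.9 CPM and males 1 to 5 had 12.02, 11.2, 11.1, 10.6 and 14.6 CPM. The groups did not overlap, male 5 lay just below the lowest female, and the log2 fold change was -0.44 ± 0.10 (adjusted p = 0.260 by edgeR; past the threshold under DESeq2, with the GC content and length trend removed, and without male 5). Fam53c (-0.18 ± 0.05) and Selenof, a selenoprotein gene of the endoplasmic reticulum (-0.20 ± 0.06), also had no overlap. Cplx3, a complexin of neurotransmitter release, ranged over 1.39 to 9.23 CPM in females and 0.822 to 2.24 CPM in males (-1.50 ± 0.42), with female 5, the library rich in Slc17a7, the highest. Gramd3 (-0.36 ± 0.10), Atp6v1e1, a subunit of the vacuolar proton pump (-0.22 ± 0.06), and Trp53rka (-0.29 ± 0.08) overlapped, and all of these had an adjusted p of 0.690 by edgeR.

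Gene lists for cell types and pathways were described by counts and medians. Apart from Slc2a1, which is in the vascular list, no gene of the 33 lists passed the adjusted threshold, so the counts below use an unadjusted p under 0.05 and are to be read beside the 3.22% and 3.03% of all genes given above.

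Endothelial and pericyte markers stood higher in susceptible males as a list. Of 25 tested, 21 had a positive log2 fold change, 11 of them at an unadjusted p under 0.05, and none was lower at that level. The median was 0.29, against 0.46 in controls, where 4 of them passed the adjusted threshold. It was 0.16 without susceptible male 3 and 0.17 without male 1, and reached 0.36 without male 2. Members higher at an unadjusted p under 0.05 numbered 5 without susceptible female 1, 7 without male 1 and 6 without male 3. Without the libraries over 100 CPM of Ttr they numbered 6 (list median 0.30), and without those over 1 CPM of Pmch 5 (list median 0.29). Pecam1, the platelet-endothelial adhesion molecule, was 10.4, 14.4, 14.4, 12.3 and 18.5 CPM in susceptible females 1 to 5 and 23.0, 16.1, 20.8, 19.2 and 20.9 CPM in susceptible males 1 to 5, with overlap through female 5 and male 2 (0.52 ± 0.14, adjusted p = 0.690 by edgeR). Ly6c1, an endothelial surface protein gene, ranged over 17.2 to 19.7 CPM in females and 18.3 to 31.2 CPM in males (0.44 ± 0.11), and Flt1, a VEGF receptor gene, differed by 0.61 ± 0.21. Cldn5, the tight junction claudin that defines brain endothelium, went against the list (-0.10 ± 0.15), at 15.98 to 21.1 CPM in females and 14.4 to 20.5 CPM in males. The summed level of the list ranged over 466 to 637 CPM in susceptible females (median 550.1) and 550.5 to 794 CPM in susceptible males (median 693), and these ranges overlapped. The part of vascular content in the Slc2a1 difference was not tested.

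Outside the list, 2 further endothelial genes had positive values. Adgrl4, an adhesion receptor of angiogenic endothelium, was 11.2 to 21.7 CPM in susceptible females and 17.7 to 28.1 CPM in susceptible males (0.58 ± 0.16), and in controls it passed (0.99 ± 0.16, adjusted p = 0.0109 by edgeR). Notch4, an endothelial Notch receptor gene, did not overlap between the susceptible groups, with 5.96 to 8.72 CPM in females and 9.12 to 14.0 CPM in males (0.51 ± 0.14, adjusted p = 0.690 by edgeR). Both were picked after their values had been seen.

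Among corticosteroid receptors, co-chaperones and target genes, 8 of 29 were higher in susceptible males at an unadjusted p under 0.05 and none was lower. Those were Nfkbia, Lcn2, Sgk1, Zbtb16, Cebpd, Fkbp5, Ddit4 and Sult1a1, while the receptors themselves showed small differences, -0.13 ± 0.09 for Nr3c1 and -0.03 ± 0.20 for Nr3c2. Sgk1, a kinase that glucocorticoids induce, had 147, 117, 158, 125 and 119 CPM in susceptible females 1 to 5 and 148, 166, 192, 181 and 237 CPM in susceptible males 1 to 5. Male 1 lay inside the female range, and the difference was 0.48 ± 0.13 (unadjusted p = 0.00179, adjusted p = 0.690 by edgeR) beside 0.46 ± 0.13 in controls. Fkbp5, a co-chaperone that restrains the glucocorticoid receptor, had 33.6, 36.6, 29.96, 28.9 and 46.8 CPM in females and 36.4, 63.1, 42.5, 61.2 and 67.97 CPM in males, with males 2, 4 and 5 above every female (0.63 ± 0.27, adjusted p = 0.774 by edgeR). Zbtb16, a transcription factor gene induced by glucocorticoids, reached 11.3, 35.6, 9.86, 52.1 and 74.4 CPM in males 1 to 5 against 5.87 to 16.5 CPM in females, so that males 2, 4 and 5 were high and males 1 and 3 were not. Lcn2, the lipocalin of acute inflammation, followed the same libraries, at 0.0675, 1.58, 0.126, 2.04 and 7.31 CPM in males 1 to 5 and at most 0.187 CPM in females. Of these genes, Nfkbia and Lcn2 passed under DESeq2. The list median was 0.13, against 0.28 in controls, and it was 0.06 without susceptible male 5 (where 5 genes were higher at an unadjusted p under 0.05), 0.05 without the libraries over 100 CPM of Ttr and 0.02 without those over 1 CPM of Pmch.

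Interferon, antigen presentation and NF-kB target genes were split, with 20 of 32 above 0 and a median of 0.06. Without male 4 the list turned, with 13 above and 19 below 0 (median -0.05), and the median was 0.15 without female 5. Icam1, the leukocyte adhesion molecule that NF-kB induces in endothelium, had 1.85, 1.06, 1.86, 2.06 and 2.24 CPM in susceptible females 1 to 5 and 4.32, 1.84, 4.30, 3.40 and 6.45 CPM in susceptible males 1 to 5, with male 2 inside the female range (1.16 ± 0.33, adjusted p = 0.690 by edgeR). Besides Icam1 and Nfkbia, Ifit1, an interferon-induced gene, was higher in males at an unadjusted p under 0.05 (0.83 ± 0.37), and none of the list was lower. Microglial markers, 21 tested, had a median of -0.03 (0.02 without female 5) and none at an unadjusted p under 0.05.

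**Figure D3:**
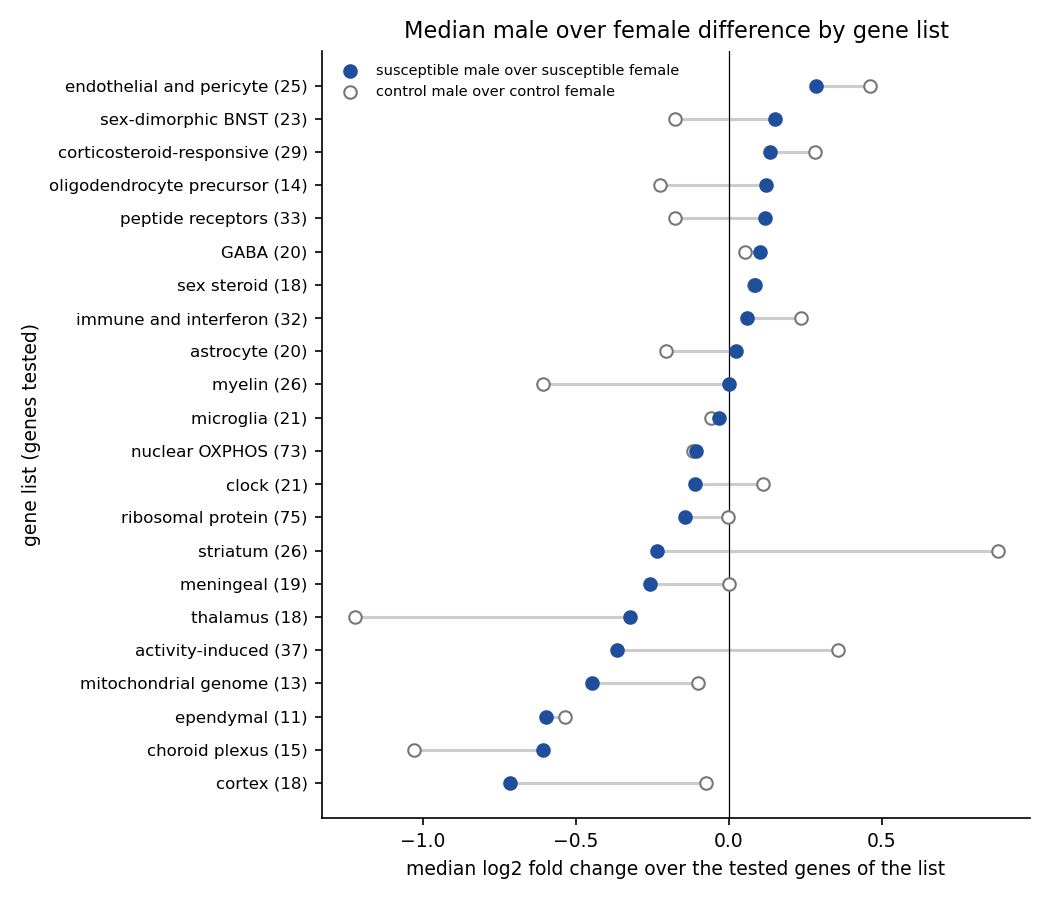
Median log2 fold change of males over females (x axis) in each of 22 gene lists (y axis, genes tested in brackets), for susceptible mice (filled points) and controls (open points). Endothelial and pericyte markers lie right of 0 in both, whereas myelin markers lie apart from 0 in controls (-0.61) and at 0.00 in susceptible mice. Thalamic markers lie left of 0 in both (-1.22 in controls, -0.32 in susceptible mice). Striatal markers lie right of 0 in controls (0.88) and left of it in susceptible mice (-0.23).

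Sex steroid genes showed little. Of 18 receptors, synthetic enzymes and cofactors, 12 had positive log2 fold changes, and the median was 0.08. Esr1, the oestrogen receptor alpha gene, was 4.95, 3.17, 5.47, 21.9 and 4.04 CPM in susceptible females 1 to 5 and 9.39, 11.99, 7.52, 6.73 and 7.71 CPM in susceptible males 1 to 5, and female 4 alone stood above every male (0.12 ± 0.45; the sign turned on leaving out female 1, 2 or 5 or male 2, and without the libraries over 100 CPM of Ttr). Greb1, a gene that oestrogen receptors switch on, reached 5.54, 7.51, 1.83, 5.74 and 5.598 CPM in males 1 to 5 and 1.25, 0.808, 1.99, 3.51 and 1.44 CPM in females 1 to 5, with male 3 inside the female range. Its log2 fold change was 1.53 ± 0.52 (unadjusted p = 0.00835, adjusted p = 0.705 by edgeR). Cyp19a1, the aromatase gene, was at or below 1.05 CPM in every susceptible library (0.87 ± 0.61), Esr2 differed by 0.83 ± 0.52 and Pgr, the progesterone receptor gene, by 0.07 ± 0.11, of which none passed.

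Genes known for sex-biased expression in the BNST and nearby hypothalamus numbered 23 among those tested, and Greb1 was the one of them at an unadjusted p under 0.05. Members higher in males at that level numbered 5 without susceptible female 4 and 5 with limma voom (1 lower). They numbered 6 without the libraries over 1 CPM of Pmch (1 lower). The median was 0.15 in susceptible mice and -0.17 in controls, and it was 0.02 without susceptible female 1 and 0.33 without susceptible female 4. Moxd1, a marker of the dimorphic principal nucleus, was 5.18 to 7.71 CPM in females and 6.39 to 10.1 CPM in males (0.32 ± 0.29). Cckar, a cholecystokinin receptor gene, ranged over 0.216 to 10.2 CPM in females and 5.25 to 6.39 CPM in males (0.41 ± 0.53), a wide female range set by females 4 and 5. Gal, the galanin precursor, ranged over 0.433 to 19.8 CPM in females and 7.65 to 19.7 CPM in males (0.89 ± 0.83).

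Crh, the corticotropin-releasing hormone gene that starts the hormonal stress response, had 7.46, 3.92, 8.78, 12.6 and 4.25 CPM in susceptible females 1 to 5 and 9.32, 11.3, 13.8, 12.3 and 10.7 CPM in susceptible males 1 to 5. Females 1 to 3 and 5 lay below every male, female 4 did not, and the log2 fold change was 0.63 ± 0.28 (unadjusted p = 0.0347, adjusted p = 0.774 by edgeR) beside 0.25 ± 0.28 in controls. Crhr1 (-0.09 ± 0.13) and Crhr2 (-0.10 ± 0.32), its receptors, and Crhbp, the protein that binds and holds it back (-0.55 ± 0.34), had adjusted p of 0.815 or more by edgeR. Of 29 neuropeptide precursors tested, Crh was the only one at an unadjusted p under 0.05. Crh lost that level with the susceptible libraries alone and without the libraries over 100 CPM of Ttr. The same held without female 1, 2 or 5 or male 3 or 4. Precursors higher at that level numbered 4 without female 4. They numbered 5 without the libraries over 1 CPM of Pmch, where 2 were lower. Avp, the vasopressin gene, ranged over 0.373 to 100.2 CPM in females and 2.09 to 75.3 CPM in males, and every female but female 4 was below 2.09 CPM, the lowest male (0.18 ± 1.52). Enkephalin (Penk, -0.17 ± 0.46), dynorphin (Pdyn, 0.10 ± 0.43), substance P (Tac1, -0.20 ± 0.42), somatostatin (Sst, -0.10 ± 0.13) and neuropeptide Y (Npy, -0.19 ± 0.28) differed by less than 1 SE or close to it, and PACAP (Adcyap1) was -0.26 ± 0.62 and Tac2, the neurokinin B gene, 0.60 ± 0.60.

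Neuropeptide receptors had 4 of 33 genes higher in susceptible males at an unadjusted p under 0.05 and 1 lower. The count of 4 depended on single libraries. It was 1 without female 5, 2 without female 3 or without male 1, 3, 4 or 5, and 7 without female 4. It was 1 with the susceptible libraries alone and 0 without those over 100 CPM of Ttr. The higher ones were Mc4r, the melanocortin receptor of appetite control (0.80 ± 0.30), Galr1, a galanin receptor (0.70 ± 0.30), Npy2r (0.56 ± 0.26) and Tacr3 (0.51 ± 0.24), and the lower was the somatostatin receptor gene Sstr2 (-0.61 ± 0.27). Oxtr, the oxytocin receptor gene, was 5.77 to 11.3 CPM in females and 8.17 to 10.7 CPM in males (0.07 ± 0.20), and Adcyap1r1, the PACAP receptor gene, was 239 to 407 CPM in females and 319.7 to 397 CPM in males (0.12 ± 0.10).

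GABA genes, for synthesis, transport and receptors, had 14 of 20 above 0 with a median of 0.10. At an unadjusted p under 0.05, 3 were higher in males and none was lower, a count that was 2 without female 3 or without male 1, 3 or 4 and 5 without female 4. Among them Gabrb2, a receptor subunit gene, had 54.7, 117, 139, 134 and 104 CPM in susceptible females 1 to 5 and 194, 107, 198, 176 and 195 CPM in susceptible males 1 to 5. Males other than male 2 stood above every female, female 1 was the lowest, and the difference was 0.67 ± 0.20 (adjusted p = 0.690 by edgeR) beside 0.04 ± 0.20 in controls. Glutamate genes (30 tested, median 0.00) had 1 at an unadjusted p under 0.05, the kainate receptor gene Grik4 (0.32 ± 0.13), and monoamine genes (31 tested, median 0.01) had Adra1a higher (0.52 ± 0.19) and Adra1d lower (-1.06 ± 0.48), both noradrenaline receptors.

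Activity-induced immediate early genes stood lower in susceptible males in 29 of 37 cases, with a median of -0.37, whereas in controls 31 were higher and the median was 0.36. At an unadjusted p under 0.05, 3 were lower (Fos, Jund and Nr4a2) and 1 was higher (Ier3, 0.47 ± 0.19). Fos, the standard marker of recent neuronal activity, was 46.0, 36.7, 47.8, 49.1 and 36.9 CPM in susceptible females 1 to 5 and 39.8, 24.3, 32.9, 25.4 and 25.8 CPM in susceptible males 1 to 5, with male 1 inside the female range (-0.55 ± 0.24, adjusted p = 0.774 by edgeR). Arc, a synaptic immediate early gene, was 112, 153, 94.9, 48.4 and 269 CPM in females 1 to 5 and 107, 86.8, 65.3, 83.9 and 40.9 CPM in males 1 to 5 (-0.82 ± 0.42). Female 5 had the most Arc and, as above, the most Slc17a7. The list median was -0.18 without female 5, -0.23 without female 2 and -0.50 without female 4. The count of genes lower at an unadjusted p under 0.05 was 9 without female 4, 1 without female 5 or without male 5, 2 without female 3, male 2 or male 3, and 0 without male 4. With the striatal minus thalamic marker level as a covariate, 15 genes were lower at that level, and 13 with 1 surrogate variable. List medians in these fits were -0.35 and -0.27. Dropping libraries rich in Pmch gave 9 lower genes, DESeq2 7, limma voom 5 and removal of the GC content and length trend 2. Dropping those rich in Ttr gave 3, as in the main fit. The part of neighbouring cortex in the result was not tested. Npas4 (-0.39 ± 0.28) and Bdnf (-0.41 ± 0.40) did not pass.

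Clock genes had 15 of 21 below 0 and a median of -0.11, against 0.11 in controls. The median was -0.03 without female 5, -0.07 without female 3 or without male 1 and -0.16 without female 4. Bhlhe41, a repressor of the clock loop, did not overlap between the groups, with 49.5 to 59.3 CPM in susceptible females and 44.5 to 47.9 CPM in susceptible males (-0.19 ± 0.07, adjusted p = 0.768 by edgeR), and Cry1, a cryptochrome repressor, was 25.6 to 38.2 and 22.2 to 26.7 CPM (-0.35 ± 0.14). Per1, which both the clock and glucocorticoids drive, differed by -0.26 ± 0.18. Hours of tissue collection were not given in the sources used here.

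All 13 protein-coding genes of the mitochondrial genome, which encode core subunits of the respiratory chain, were lower in susceptible males than in susceptible females, and 10 of them were so at an unadjusted p under 0.05. That count was 7 with limma voom or without the libraries over 100 CPM of Ttr. It was 8 without female 2, without male 5 or with the GC content and length trend removed, and 12 without female 3. None of the 13 genes passed the adjusted threshold. Their share of each library's counts was 7.22%, 7.37%, 5.38%, 5.78% and 6.20% in susceptible females 1 to 5 and 4.82%, 4.76%, 5.44%, 5.19% and 4.85% in susceptible males 1 to 5. Females 1 and 2 were the highest, and only female 3 and male 3 crossed. Means were 6.39% ± 0.877 and 5.01% ± 0.293 (SD, n = 5 each), beside 5.16% ± 0.740 in control females and 5.01% ± 0.728 in control males. The male minus female difference of -1.38 percentage points lay between -1.63 and -1.13 on leaving out each library.

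By gene, mt-Nd1, a complex I subunit, had 9113, 9166, 6604, 6764 and 8456 CPM in susceptible females 1 to 5 and 5684, 6094, 6652, 6117 and 6084 CPM in susceptible males 1 to 5, with female 3 below male 3 (-0.39 ± 0.12, adjusted p = 0.690 by edgeR). mt-Nd6 was the one of the 13 without overlap, at 1686 to 2490.2 CPM in females and 1321 to 1642 CPM in males (-0.46 ± 0.15). mt-Co2, a cytochrome oxidase subunit, had the smallest p, with 224, 421, 187, 268 and 428 CPM in females 1 to 5 and 122, 148, 172, 219 and 119 CPM in males 1 to 5 (-0.97 ± 0.26, adjusted p = 0.690 by edgeR). It was also much rarer than mt-Co1, at 18956 to 25069 CPM in females and 16524 to 19220.4 CPM in males (-0.32 ± 0.11). Low levels were shared by mt-Co3, mt-Atp6, mt-Nd3, mt-Nd4l and mt-Atp8, none above 657 CPM in any susceptible library. Mitochondrial sequences have near-identical copies in the nuclear genome, and how reads with several matches were counted was not given in the sources used here. The values of single mitochondrial genes are uncertain for that reason. The median over the 13 was -0.45, against -0.10 in controls, and every one of them stayed below 0 in each alternative in which it was fitted.

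**Figure D4:**
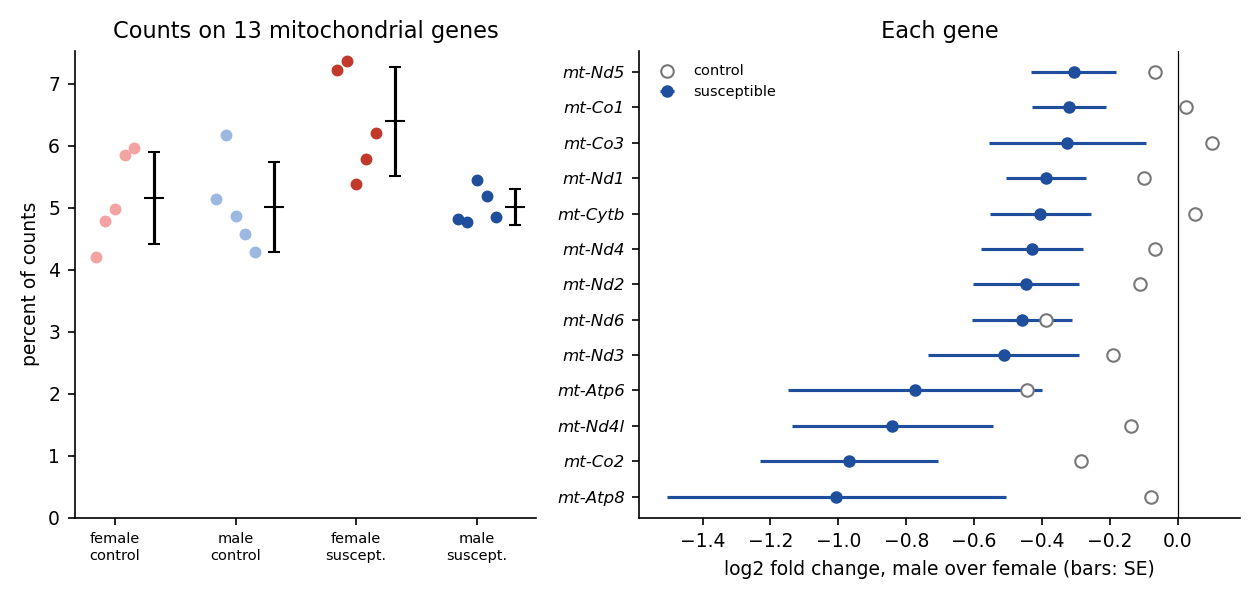
Left, percent of counts on the 13 mitochondrial genes in each library of the 4 groups (points; bars, mean and SD, n = 5); right, log2 fold change of males over females for each gene in susceptible mice (filled, with SE) and controls (open). Susceptible females 1 and 2 hold the highest shares (7.22% and 7.37%), and all 13 filled points lie left of 0.

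Nuclear genes of the respiratory chain and ribosomal protein genes leaned the same way by smaller amounts. Of 73 nuclear respiratory chain genes, 70 were below 0 (median -0.11; 7 at an unadjusted p under 0.05), led by Cox6c (-0.26 ± 0.08) and Atp5o (-0.25 ± 0.08), and in controls the median was -0.12. Of 75 cytosolic ribosomal protein genes, 72 were below 0 (median -0.14; 17 at an unadjusted p under 0.05), among them Rpl7a (-0.18 ± 0.06), against a median of -0.00 in controls. Rpl7a was 186, 158, 148, 151 and 153 CPM in susceptible females 1 to 5 and 132, 147, 137, 142 and 143 CPM in susceptible males 1 to 5, and female 1 stood apart. Without female 1 the ribosomal median was -0.05 with 2 genes at an unadjusted p under 0.05, and the nuclear respiratory median was -0.03. Ribosomal genes lower at that level numbered 4 with the susceptible libraries alone, 5 without male 1, 8 with limma voom and 39 without male 2. In that order, nuclear respiratory genes numbered 5, 4, 11 and 19. With a smooth trend on GC content and gene length removed, the medians were -0.05 and -0.02, with 3 genes lower at that level in each list. Ribosomal protein genes have many processed pseudogenes, and reads shared with them could not be separated.

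Glial lists showed few differences between susceptible males and females. Oligodendrocyte and myelin markers divided evenly, 13 above and 13 below 0 (median 0.00), whereas all 26 were lower in control males (median -0.61). Without the libraries over 100 CPM of Ttr, 25 of the 26 were above 0 in susceptible mice (median 0.12). Precursor markers were above 0 in 11 of 14 cases (median 0.12; 0.05 without female 5). At an unadjusted p under 0.05, 3 were higher, which were Pdgfra, the growth factor receptor of these cells (0.23 ± 0.08), Sox6 (0.41 ± 0.15) and Cspg4 (0.29 ± 0.11), and 1 was lower, Tmem100 (-0.21 ± 0.10). None of the precursor markers was at that level with the GC content and length trend removed. The lists share members, and Cspg4 also counts among the endothelial and pericyte markers above, while Pdgfra is in the meningeal list too. Astrocyte markers had a median of 0.02 (-0.05 without female 5 and -0.04 without male 5), with Fgfr3 higher at an unadjusted p under 0.05 (0.20 ± 0.09) and Sox9, the astrocyte transcription factor, at -0.44 ± 0.21 (unadjusted p = 0.0503).

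Medians of marker lists for structures around the BNST lay below 0, and for several of them that sign rested on 1 library. Cortical and hippocampal markers had 15 of 18 below 0 (median -0.71), but without susceptible female 5 the counts were 10 below and 8 above and the median -0.11. Neurod6, a factor of cortical excitatory neurons, showed this, with 1.45, 3.17, 1.38, 1.06 and 25.1 CPM in susceptible females 1 to 5 and 0.379 to 1.05 CPM in susceptible males (-3.04 ± 1.08, adjusted p = 0.727 by edgeR). Ependymal markers were all below 0 (11 of 11, median -0.60, controls -0.54), and the summed level was 30.9 to 112 CPM in susceptible females (median 77.2) and 20.4 to 75.1 CPM in susceptible males (median 56.0). Their median was -0.31 without female 1. Choroid plexus (13 of 15, median -0.61), meningeal (18 of 19, median -0.26), thalamic (17 of 18, median -0.32) and striatal markers (23 of 26, median -0.23) had at most 2 members each at an unadjusted p under 0.05 on the lower side. Without female 3, 14 of the 15 choroid plexus markers were above 0 (median 0.79), as were 11 of the 18 thalamic ones (median 0.43), and the meningeal median was -0.16. Without female 5, 17 of the 26 striatal markers were above 0 (median 0.03). The striatal median was also close to 0 without female 2 (-0.08) or male 5 (-0.04), and the meningeal one was -0.16 without male 4. Without male 5 the choroid plexus and thalamic medians were -1.86 and -1.20. Without the libraries over 100 CPM of Ttr, the choroid plexus median was -0.01. Prl, the pituitary prolactin gene, was 5.74, 5.41, 5.23, 0.612 and 0.216 CPM in susceptible females 1 to 5 and at most 0.741 CPM in susceptible males, so that females 1 to 3 stood apart from the other 7 libraries. The part of these structures in the differences above was not tested.

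Whether the male over female difference was unlike in susceptible mice and controls was asked by subtracting the difference in controls from that in susceptible mice. Stress and the choice of susceptible animals cannot be told apart in this subtraction. No gene passed the adjusted threshold (0% of genes; smallest adjusted p = 0.587, edgeR), and DESeq2 and limma voom also called 0. At an unadjusted p under 0.05, 1187 genes differed (8.28%), 509 with a positive and 678 with a negative difference, and this count ranged from 724 without susceptible male 5 to 2244 without susceptible female 4. It was 543 with the region score, the striatal minus the thalamic marker level, as a covariate, 496 without the libraries over 100 CPM of Ttr and 546 without those over 1 CPM of Pmch. Both limits applied to susceptible and control libraries, and the part of lost replicates was not tested. In the main fit, 17 of 26 myelin markers had a positive difference at that level and 0 a negative one. Of 21 clock genes, 11 had a negative difference at that level and 0 a positive one. Both lists stood above the 8.28% of all genes, and these list counts were not repeated in the alternatives. The smallest p-values on the positive side were those of Elmod2, Gjc3, Tmem200c, Elovl6 and P2rx3. Gjc3, a connexin of myelinating glia, had 86.7 to 116 CPM in susceptible females and 83.2 to 121 CPM in susceptible males (0.04 ± 0.12), but 94.3 to 140.3 and 67.0 to 95.1 CPM in control females and males (-0.66 ± 0.12), a difference of 0.70 ± 0.17 (unadjusted p = 0.00075). On the negative side were Mcm7, Acbd4, Tbc1d10c, Rdh10 and Ercc1. Rdh10, an enzyme of retinoic acid synthesis, went from 0.25 ± 0.11 in controls to -0.38 ± 0.11 in susceptible mice (unadjusted p of the difference 0.0009).

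Between the control groups 68 genes passed the adjusted threshold (0.474%), 38 higher and 30 lower in males. That count lay between 0 without female control 3 and 440 without female control 5, and leaving out the libraries over 100 CPM of Ttr gave 0. The Ttr limit applied to control libraries, and the part of lost replicates in that fall was not tested. The susceptible libraries do not enter the control log2 fold change, but they do enter the shared spread by which the 68 were called. They gave the same sign for 57 of the 68 (83.8%, against 55.4% of all genes). Of the 68, 22 also had an unadjusted p under 0.05 in the same direction in susceptible mice (32.4%, against 4.47% of all genes) and 0 in the opposite one. A small shared spread lowers p in both comparisons, so that share is not independent of the choice of genes. Sizes were smaller, with a median of 0.14 in the control direction after stress, beside 0.54 in controls, where the genes had been chosen for passing. Slc2a1 was the only one of the 68 that passed in both. Among those sharing direction were the endothelial genes Pecam1, Adgrl4, Robo4 (0.43 in susceptible mice, 0.80 in controls) and Podxl (0.48 and 0.84). Vwf, the von Willebrand factor gene, was 0.08 in susceptible mice and 1.13 in controls, and Ermn, a myelin gene, -0.01 and -0.83.

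**Figure D5:**
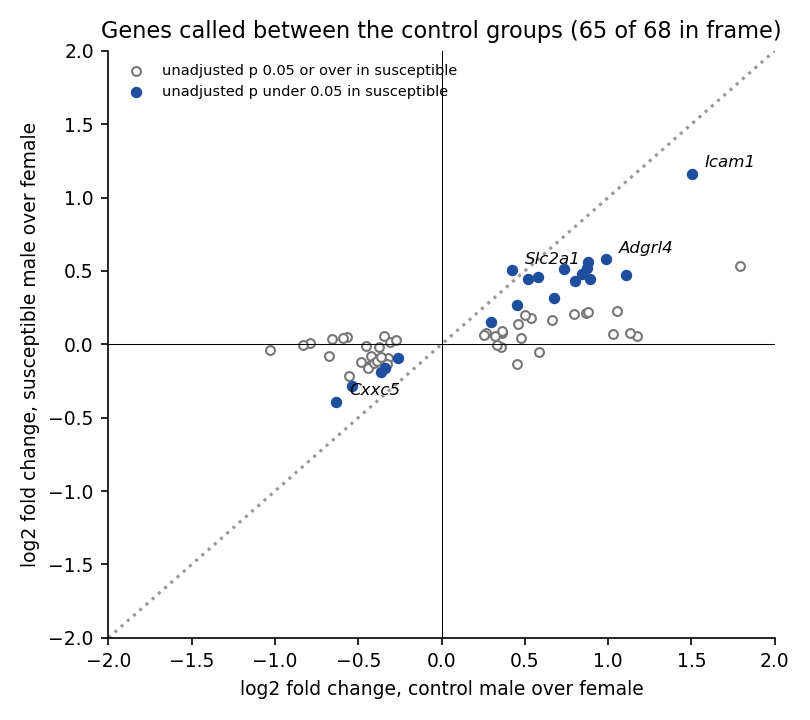
Log2 fold change of males over females in controls (x axis) and in susceptible mice (y axis) for genes called between the control groups; filled points have an unadjusted p under 0.05 in susceptible mice, and the dotted line marks equal values. Of the 68 genes 65 lie in the frame; Ch25h (4.18 and 3.24), Gh (-5.46 and -2.15) and Prl (-6.12 and -3.18) lie outside it.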

How the data were processed

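RNA was sequenced from polyA+ cDNA libraries of the BNST, per the labels' protocols. HISAT2, featureCounts and the mm10 build are named in the submitters' processing notes, without versions. The authors deposited raw gene counts for each library, with no normalization. Of the 19214 genes, 19206 matched GENCODE M21 (GRCm38) and 8 did not.

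The main test was edgeR 4.0.16 (R 4.3.3), a robust quasi-likelihood fit with TMM scaling on all 20 libraries, 1 mean per group, after edgeR's filter on low counts. P-values were adjusted by Benjamini-Hochberg over all 14884 genes tested, sex-linked ones included, at a threshold of 0.05. Only autosomal and mitochondrial genes are reported. Alternatives used DESeq2 1.42.0, limma 3.58.1, sva 3.50.0, mgcv 1.9.3 for the trend on GC content and length, other filters and scalings, and fewer libraries. No 2 libraries of a group were alike to within counting noise.

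The members and gene lists were chosen with earlier results of these data known. Named were called genes, the 8 smallest p-values per direction and 5 for the difference in sex effect, 32 genes of stress and sex biology, the 2 smallest p-values per list, and all 13 mitochondrial genes. Ch25h, Pecam1, Cldn5, Adgrl4, Zbtb16, Notch4, Elmsan1, Dclre1b, Robo4, Podxl, Vwf, Ermn and the remaining list members were picked after their values were seen. Tsc22d3, which is X-linked, was not analysed here. Some genes of the lists are not reported here by name.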

Additional observations from a re-analysis of the deposited data

Results flagged for a closer look

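In each susceptible group of 5, the library farthest out was set against the other 4 for the genes named. In 252 such sets of 5 values, 20 cases stood apart by Dixon's criterion (a gap over 0.71 of the range), with the same libraries recurring. Chance gives about 1 in 20 sets for independent, normally distributed values. CPM were not log-transformed here, and some genes were picked after their values were seen, so that rate is only a rough guide. Susceptible female 4 stood high for Esr1 (21.9 CPM), Avp (100.2 CPM), Gal (19.8 CPM) and Npas1 (13.1 CPM). Susceptible female 5 stood high for Slc17a7 (719 CPM), Neurod6 (25.1 CPM) and Tbc1d10c (3.24 CPM) and low for Six3 (57.0 CPM).

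Susceptible female 1 stood high for Trp53rka (18.9 CPM), the respiratory chain gene Atp5o (89.6 CPM) and the ribosomal protein gene Rpl7a (186 CPM). Female 2 stood high for mt-Co3 (165 CPM) and female 3 for Trpv4 (17.9 CPM). Susceptible male 5 stood high for Slc2a1 (139.8 CPM), Cck (55.6 CPM), Lcn2 (7.31 CPM) and Atf4 (102 CPM). Susceptible male 2 stood high for Gal (19.7 CPM) and low for Gabrb2 (107 CPM) and Pdgfra (80.2 CPM).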

How the results depend on the processing

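Of the 14335 genes, 1 was called between susceptible males and females in the reported fit. DESeq2 called 7, limma voom 2, a fit with 1 surrogate variable 3, one with the region score 3, one without the libraries over 1 CPM of Pmch 6, and one with the GC content and length trend removed 2. The count was 0 with the susceptible libraries alone, with sex-linked and unplaced genes removed, without the libraries over 100 CPM of Ttr and with adjustment over autosomal and mitochondrial genes alone. Leaving out each library gave 0 (female 2) to 13 (female 4), with 2 without male 5. Where Slc2a1 lost its call, its log2 fold change was 0.51 with the susceptible libraries alone, with sex-linked genes removed and with the narrower adjustment, and 0.40 without the libraries rich in Ttr. It was 0.41 to 0.56 on leaving out each library.

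With the replicate number as a block, 0 genes were called and Slc2a1 had a log2 fold change of 0.50. Libraries with the same number did not deviate together (correlations of male and female deviations -0.394 to 0.203), and 1 of 5 female and 1 of 5 male libraries correlated best with its own number, so the numbers were not taken as pairs.

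Between controls the 68 calls became 30 without a count filter, with sex-linked genes removed or with the narrower adjustment. They became 436 with DESeq2, 3218 with limma voom, 9 with the surrogate variable, 7 with the region score, 0 without the libraries rich in Ttr and 1 without those rich in Pmch. The Ttr and Pmch limits applied to control libraries, and how many controls were left was not counted. The part of lost replicates in those falls was not tested. Leaving out each library gave 0 to 440 calls. The difference in sex effect had 0 calls in every alternative run.

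Some genes that did not pass changed sign. Without the libraries rich in Ttr, log2 fold changes were 0.20 for Crhr2, 0.0491 for Nr3c2, -0.30 for Esr1, -0.0566 for Pgr, -2.37 for Avp, 0.0382 for Sox10, 0.12 for Otx2, 0.17 for Trpv4 and 0.0656 for Bpgm. With limma voom they were 0.0038 for Nr3c2 and 0.0855 for Tac1, and with the GC content and length trend removed -0.0069 for Pgr and 0.0202 for Sst. Leaving out each library gave -0.17 to 0.0154 for Crhr1, -0.28 to 0.17 for Crhr2, -0.17 to 0.10 for Nr3c2, -0.0705 to 0.97 for Esr1, -0.94 to 4.84 for Avp and -0.0532 to 0.17 for Oxtr. The ranges were -0.39 to 0.0514 for Tac1, -0.37 to 0.0159 for Penk, -0.0809 to 0.33 for Pdyn, -0.63 to 0.31 for Adcyap1, -0.32 to 0.0729 for Npy, -1.33 to 0.59 for Trpv4 and -0.11 to 0.0266 for Bpgm. The causes were not tested. The trend removal, the narrower adjustment and the recount of lists were added after seeing the data.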
